A study of Mus musculus with 15 samples.

Results

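Astrocyte genes were followed through a set of 15 mouse arrays made to study Notch3 in vascular smooth muscle. The members are Gfap, Aqp4, Aldoc, Slc1a2, Slc1a3, Glul, S100b, Apoe, Clu and Sparcl1, chosen by name, and every probe set that the platform annotation ties to them. These are 30 of the 45101 probe sets, and 10 of the 18194 genes with a probe set of their own symbol. Of the 30, 29 carry a single symbol and are described here; the other is annotated to Slc1a2 together with a second gene and was not used. Brain cells labelled as smooth muscle cells and pericytes had been sorted by flow cytometry from 5 Notch3 -/- mice and 4 Notch3 +/- mice, with 1 array per mouse. Aorta explants gave 3 Notch3 -/- and 3 Notch3 +/- arrays, and nothing in the labels says that these came from separate animals, so p-values in aorta measure only the spread between those samples. All mice were C57BL6J males aged 10 to 12 weeks, and all carried at least 1 disrupted Notch3 allele, since no wild-type array was analysed here. The arrays are named by the letters and numbers of the sample titles, A, B, C, D and F for Notch3 -/- brain, E, G, H and I for Notch3 +/- brain, 5558, 5559 and 6167 for Notch3 -/- aorta and 5556, 5561 and 6166 for Notch3 +/- aorta.

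Astrocytes are the glial cells whose end-feet wrap brain vessels from the outside, next to the smooth muscle cells and pericytes of the vessel wall. They clear glutamate from synapses with the transporters encoded by Slc1a2 and Slc1a3, convert it to glutamine with the enzyme encoded by Glul, and move water through the aquaporin encoded by Aqp4 at the end-feet. Gfap encodes their intermediate filament, Aldoc a glycolytic aldolase, S100b a calcium-binding protein, Apoe and Clu lipid-carrying secreted proteins, and Sparcl1 a secreted matrix protein that promotes synapse formation. Several of these genes are also used outside astrocytes, S100b and Glul by oligodendrocytes among others, and Clu and Sparcl1 by cells of the vessel wall.

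Aldoc, Slc1a2 and Slc1a3 had correlations above 0 with each other across the brain arrays, and S100b and Glul had the highest estimates between genotypes in brain, though none passed the test, so the promoters of these 5 genes are shown. The sequences are the 250 bases before the annotated start, read 5′ to 3′ in the direction of the gene, from RefSeq on GRCm38.p6. Windows from the RefSeq promoter table were taken for 7 of the 10 members, with 10 starts among them. Capitals mark 3 short motifs on either strand. They are TGGGAA, the core bound by the Notch partner RBPJ, TTCNNNGAA, bound by STAT factors, and TTGGC, bound by nuclear factor I, both of the last being known regulators of astrocyte genes. The Aldoc window is chr11:78322823-78323072 on the plus strand, the upstream of its 2 starts in the table. The Slc1a2 window is chr2:102706188-102706437 on the plus strand and the Slc1a3 window is chr15:8710808-8711057 on the minus strand. The Glul window is chr1:153899679-153899928 on the plus strand and the S100b window is chr10:76253586-76253835 on the plus strand.
Aldoc: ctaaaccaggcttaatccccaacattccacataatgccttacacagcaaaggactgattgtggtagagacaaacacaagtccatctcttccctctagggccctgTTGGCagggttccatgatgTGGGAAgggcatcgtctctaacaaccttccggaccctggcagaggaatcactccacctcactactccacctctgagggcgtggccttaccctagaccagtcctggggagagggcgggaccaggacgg
Slc1a2: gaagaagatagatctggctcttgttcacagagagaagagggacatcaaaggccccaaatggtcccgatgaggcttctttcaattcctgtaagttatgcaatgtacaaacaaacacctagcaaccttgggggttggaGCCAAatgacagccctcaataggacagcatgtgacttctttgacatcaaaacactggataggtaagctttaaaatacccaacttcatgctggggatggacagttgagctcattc
Slc1a3: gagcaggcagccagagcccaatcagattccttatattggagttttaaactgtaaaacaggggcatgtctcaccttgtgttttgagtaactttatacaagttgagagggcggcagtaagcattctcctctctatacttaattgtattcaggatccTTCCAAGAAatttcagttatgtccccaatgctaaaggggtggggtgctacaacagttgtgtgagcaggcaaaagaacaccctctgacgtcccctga
Glul: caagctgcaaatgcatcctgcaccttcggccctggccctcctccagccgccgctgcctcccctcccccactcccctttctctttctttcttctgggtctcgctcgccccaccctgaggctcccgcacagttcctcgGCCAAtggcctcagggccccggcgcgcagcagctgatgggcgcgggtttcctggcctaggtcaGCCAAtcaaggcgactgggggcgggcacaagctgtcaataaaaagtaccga
S100b: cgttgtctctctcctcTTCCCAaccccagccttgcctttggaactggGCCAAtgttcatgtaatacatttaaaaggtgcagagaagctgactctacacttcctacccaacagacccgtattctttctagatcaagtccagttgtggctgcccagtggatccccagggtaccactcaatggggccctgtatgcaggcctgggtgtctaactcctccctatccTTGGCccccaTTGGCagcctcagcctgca
Across all 32851 promoter windows of this length, 21.6% held TGGGAA, 7.02% held TTCNNNGAA and 41.5% held TTGGC. The Aldoc window held 1 TGGGAA and 1 TTGGC, and the S100b window held 1 TGGGAA and 3 TTGGC. The Glul window held 2 TTGGC and the Slc1a2 window 1. The Slc1a3 window held 1 TTCNNNGAA and neither of the others. No motif was common to Aldoc, Slc1a2 and Slc1a3 in these windows. A match is a stretch of letters and says nothing of whether a factor sits there.

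Values are linear probe-set intensities that the authors scaled to a target of 150 per array, so levels of different probe sets are not set against each other. Arrays of the same group had a Pearson r of 0.932 to 0.981 with each other. Notch3 averaged 210.0 ± 37.0 in Notch3 -/- brain and 2616 ± 222 in Notch3 +/- brain at its brighter probe set (SD, n = 5 and 4). In aorta it averaged 108.0 ± 34.1 in Notch3 -/- explants and 401 ± 47.2 in Notch3 +/- explants (SD, n = 3 each), and every -/- array lay below every +/- array of its tissue. The sort held the markers of its labelled cells together with those of other brain cells. The summed intensity of 17 mural genes ran from 42493 to 53947 in Notch3 -/- brain and from 56328 to 99649 in Notch3 +/- brain. That of 16 endothelial genes ran from 76611 to 96388 in Notch3 -/- brain and from 69722 to 88151 in Notch3 +/- brain. For 12 oligodendrocyte genes the sums were 35528 to 49259 in Notch3 -/- brain and 31367 to 43007 in Notch3 +/- brain, and no listed gene was at 0. Aorta array 5556 stood apart from the other explants. Neuronal genes lay 0.79 log2 units above the aorta mean there, with Snap25 at 152 and Mbp at 371, against 0.542 to 10.1 and 56.1 to 66.4 on the other 5 aorta arrays, and Aldoc was also at its aortic maximum on it.

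Most of the astrocyte genes were far higher in the brain sort than in aorta explants, in both genotypes. Aldoc, Aqp4 and Slc1a2 differed most, and Clu and Sparcl1, the members also used by vessel wall cells, differed least. Values were compared as log2(value + 16) with limma across the 22519 probe sets at or above the median level, brain minus aorta, and because 16 is added a difference understates the ratio of a gene that is dim in aorta. At the brightest probe set of each gene, 9 of 10 members were higher in brain among Notch3 -/- arrays and 10 of 10 among Notch3 +/- arrays, at 5% after Benjamini-Hochberg adjustment. Over all probe sets 33.6% were higher in brain and 28.9% lower among Notch3 -/- arrays, and 26.5% higher and 25.2% lower among Notch3 +/- arrays. Several members reach the median level only through their brain values, so the counts were also made on all 29 probe sets with no filter. Then 21 were higher and 1 lower among Notch3 -/- arrays, where 20.3% of all probe sets were higher and 17.5% lower. Among Notch3 +/- arrays 19 were higher and 0 lower, where 14.6% of all were higher and 13.9% lower. The tissue, the sorting and the RNA extraction differed together and cannot be told apart.

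**Figure D1:**
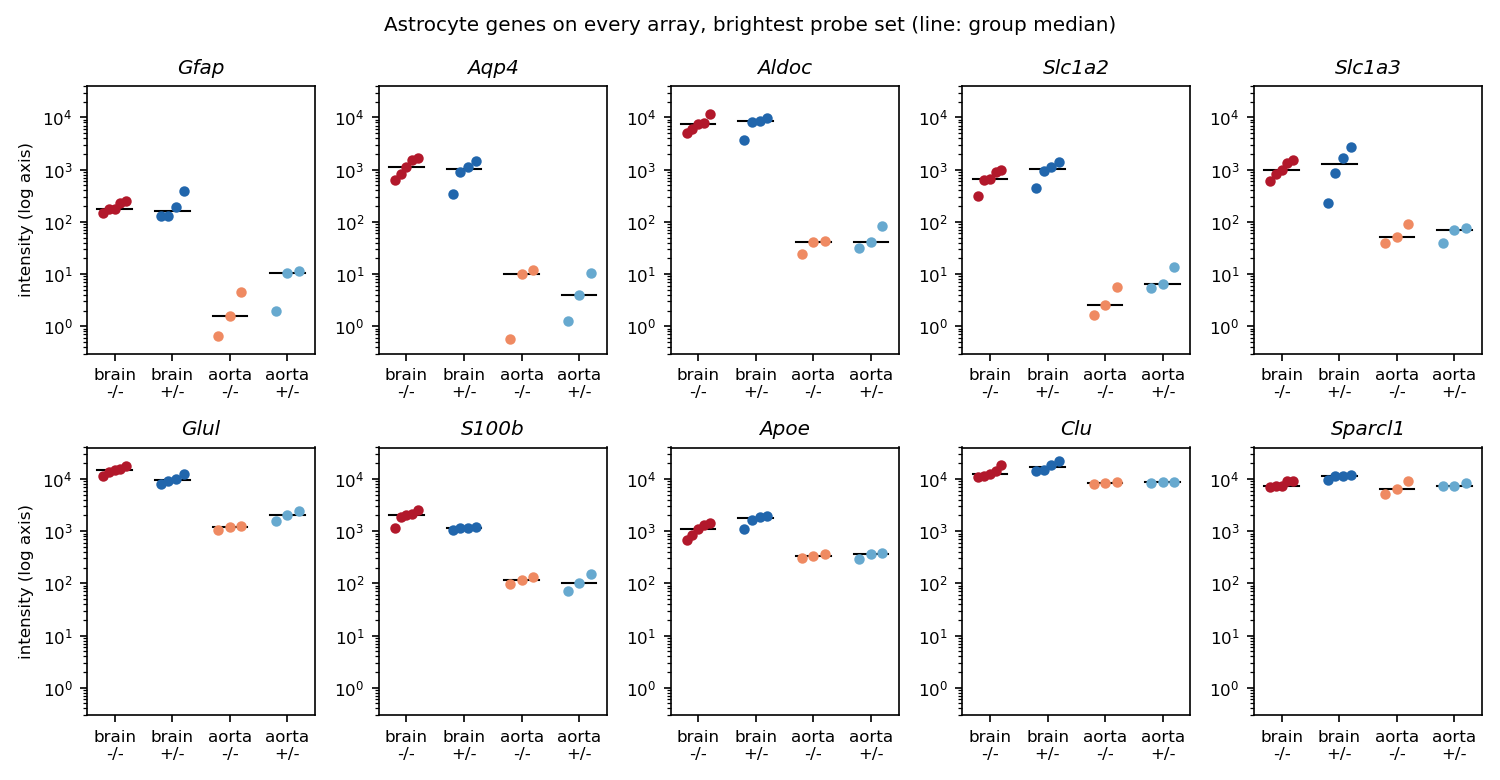
Intensity (log axis) of the brightest probe set of each of the 10 astrocyte genes, with 1 point per array, sorted by value within a group, and a line at the group median, for brain and aorta of each Notch3 genotype. Aqp4, Aldoc and Slc1a2 lie far apart between the tissues, while Clu and Sparcl1 lie close together in all 4 groups.

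Aldoc, the brain aldolase, read 5119, 6076, 7389, 11452 and 7749 on Notch3 -/- brain arrays A, B, C, D and F, against 23.7, 40.2 and 43.5 on the Notch3 -/- aorta arrays. On Notch3 +/- brain arrays E, G, H and I it read 3642, 8299, 9705 and 8689, against 84.2, 31.0 and 41.7 on the Notch3 +/- aorta arrays. No brain array came near an aorta array. The difference was 7.16 log2 units in Notch3 -/- (SE 0.22, limma adjusted p = 2.3e-11) and 6.78 in Notch3 +/- (SE 0.35, adjusted p = 1.17e-07). Without aorta array 5556 the Notch3 +/- difference was 7.10.

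Aqp4, the end-foot water channel, read 624, 818, 1530, 1643 and 1138 in Notch3 -/- brain (A, B, C, D, F), against 10.1, 12.1 and 0.581 in Notch3 -/- aorta. In Notch3 +/- brain it read 348, 917, 1129 and 1442 (E, G, H, I), against 10.4, 3.89 and 1.25 in Notch3 +/- aorta. Slc1a2, the main glutamate transporter of mature astrocytes, read 651, 312, 627, 996 and 917 in Notch3 -/- brain, against 2.60, 1.68 and 5.75 in Notch3 -/- aorta. For both genes every brain array lay far above every aorta array at the brightest probe set. In Notch3 +/- brain Slc1a2 read 438, 934, 1099 and 1426, against 6.52, 13.7 and 5.41 in Notch3 +/- aorta. The brain minus aorta difference of Aqp4 was 5.57 (SE 0.29) in Notch3 -/- and 5.38 (SE 0.40) in Notch3 +/-. That of Slc1a2 was 5.12 (SE 0.29) in Notch3 -/- and 5.23 (SE 0.34) in Notch3 +/-, and all 4 passed the test. Not every dimmer probe set showed this. An Aqp4 probe set ran from 34.9 to 64.6 in brain and from 7.08 to 48.0 in aorta. Its Notch3 +/- difference was 0.18 (limma adjusted p = 0.558). In Notch3 -/- it was below the level filter, and with no filter its difference was 1.09 (limma adjusted p = 0.0078). The dimmest Slc1a2 probe set ran from 3.83 to 25.5 in brain and from 2.28 to 13.4 in aorta.

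Gfap, the filament protein, passed the level filter at a single probe set, and its value on each brain array is given with the genotype comparison. It ranged from 129 to 398 over the 9 brain arrays and from 0.661 to 11.4 over the 6 aorta arrays, a difference of 3.52 (SE 0.20) in Notch3 -/- and 3.14 (SE 0.36) in Notch3 +/-. The other 2 Gfap probe sets stayed between 9.16 and 79.3 in brain and between 3.62 and 40.4 in aorta. With no filter neither passed in either genotype, so the Gfap tissue difference rests on a single probe set. Slc1a3, the second glutamate transporter, was higher in brain by 3.80 (SE 0.28) in Notch3 -/- and 3.74 (SE 0.63) in Notch3 +/-. S100b was higher in brain by 3.88 (SE 0.21) in Notch3 -/- and 3.25 (SE 0.21) in Notch3 +/-.

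Glul, glutamine synthetase, was high in brain and clearly measured in aorta too. It was 12.2-fold higher in brain in Notch3 -/- (log2 3.61, SE 0.14) and 4.82-fold higher in Notch3 +/- (log2 2.27, SE 0.21). Apoe was 2.97-fold higher in Notch3 -/- (log2 1.57, SE 0.21) and 4.53-fold higher in Notch3 +/- (log2 2.18, SE 0.21). Glul, S100b and Apoe are the members whose tissue differences are furthest apart between genotypes, and the test of that difference is given after the aorta comparison.

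Clu, the clusterin gene, ranged from 10999 to 22186 over the brain arrays and from 8092 to 8829 over the aorta arrays at its brightest probe set. The difference was 0.67 (SE 0.15, adjusted p = 0.00191) in Notch3 -/- and 0.998 (SE 0.19, adjusted p = 0.00122) in Notch3 +/-. Its dimmest probe set went the other way, from 1928 to 3807 in brain and from 3835 to 4595 in aorta, lower by 0.58 in Notch3 -/- and by 0.55 in Notch3 +/-, though the Notch3 +/- call did not hold without the filter. Sparcl1 ranged from 6967 to 11761 in brain and from 5034 to 9089 in aorta. Its difference was 0.27 (SE 0.17, adjusted p = 0.1998) in Notch3 -/-, which did not pass, and 0.53 (SE 0.16, adjusted p = 0.0176) in Notch3 +/-, where the call was lost without aorta array 5556 (adjusted p = 0.0853). Both genes depend on the scaling between tissues. After quantile normalization the Clu difference was 0.000638 in Notch3 -/- and 0.0547 in Notch3 +/-, neither past the test, and that of Sparcl1 was -0.29 in Notch3 -/- and -0.09 in Notch3 +/-.

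Other astrocyte genes, listed from general knowledge of the cell type, were mostly higher in brain too. With no filter, of 39 measured at their brightest probe set 31 were higher and 2 lower in brain in Notch3 -/-, against the 20.3% and 17.5% of all probe sets, with a median difference of 2.44 against 0.09 over all. In Notch3 +/- 31 were higher and 2 lower, against 14.6% and 13.9%, with a median of 2.28 against 0.10. Bcan, which encodes the matrix proteoglycan brevican, was higher by 7.68 in Notch3 -/- and 7.44 in Notch3 +/-. Ttyh1, a membrane channel family gene, was higher by 5.33 in Notch3 -/- and 4.88 in Notch3 +/-. Dio2, the enzyme that activates thyroid hormone, was lower in brain, by 2.13 log2 units in Notch3 -/- (155 to 285 in brain and 749.6 to 995 in aorta). Markers of other brain cells were higher beside them. With no filter 15 of 16 endothelial and 11 of 12 oligodendrocyte genes measured were higher in brain in Notch3 -/-. So were 11 of 16 neuronal and 9 of 12 choroid plexus and ependymal genes, against 20.3% of all probe sets. In Notch3 +/- the counts were 15 of 16, 10 of 12, 5 of 16 and 9 of 12 in the same order, against 14.6%. The part of these cells in the astrocyte values was not tested. In a bulk sample fewer cells of a type and less RNA per cell cannot be told apart.

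Within the brain sort, no astrocyte gene passed the test between genotypes. All 10 members were measured above the level filter, at 22 of 29 probe sets, and 0 of the 22 passed 5%, while 32 of the 22519 probe sets tested did (0.142%). At an unadjusted p under 0.05 there were 5 of the 22, where 9.39% of all probe sets reached it. The estimates were split, 11 higher and 11 lower in Notch3 -/-. Across the 10 genes at their brightest probe set the median difference was 0.02, against 0.01 over all tested. Gfap, Aqp4, Aldoc, Slc1a2 and Slc1a3 had wide intervals. Between arrays of the same genotype, Gfap varied 1.69-fold in Notch3 -/- and 3.08-fold in Notch3 +/-, and Aqp4 2.63-fold in Notch3 -/- and 4.14-fold in Notch3 +/-.

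**Figure D2:**
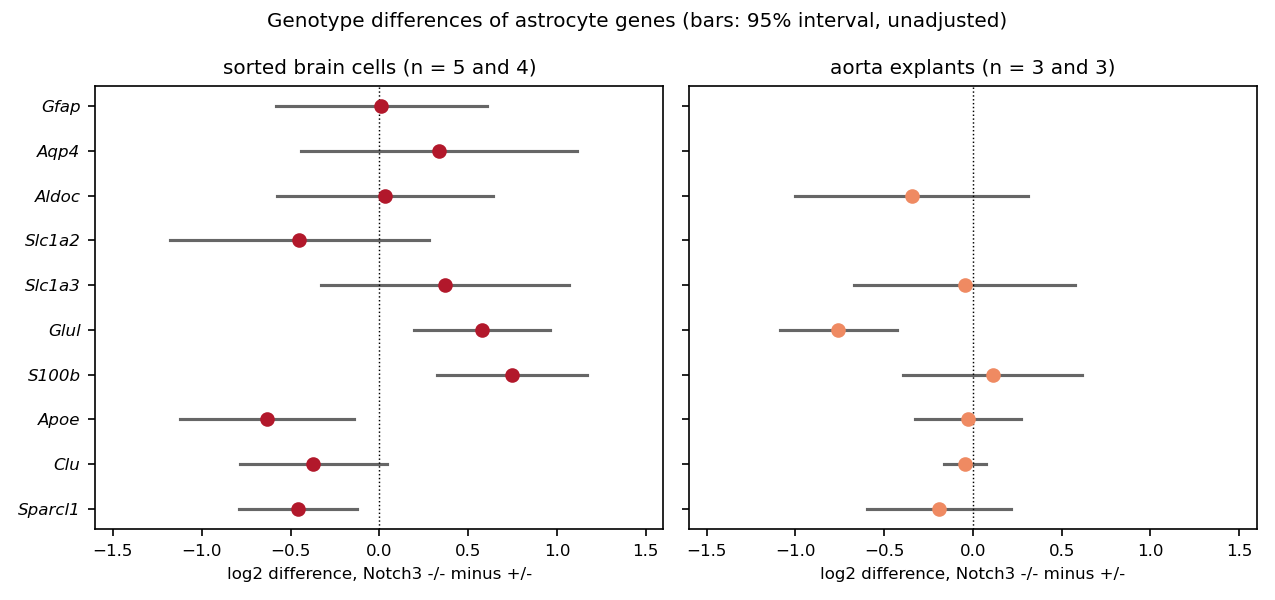
Log2 difference, Notch3 -/- minus Notch3 +/-, of each astrocyte gene at its brightest probe set in sorted brain cells and in aorta explants, with bars for the unadjusted 95% interval from limma. S100b and Glul lie above 0 and Apoe and Sparcl1 below 0 in brain, and Glul lies below 0 in aorta, while none passed 5% after adjustment. Gfap, Aqp4 and Slc1a2 were below the level filter in aorta and are not drawn there.

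Gfap read 175, 175, 251, 149 and 232 on Notch3 -/- arrays A, B, C, D and F, against 129, 130.4, 398 and 195.0 on Notch3 +/- arrays E, G, H and I. The highest value, on H, and the lowest values, on E and G, were all Notch3 +/-, and the groups overlapped throughout. The difference was 0.01 (SE 0.28, 95% interval -0.58 to 0.61, limma adjusted p = 0.993). Aldoc, with the readings given for the tissues, differed by 0.03 (SE 0.28, interval -0.57 to 0.64) and Aqp4 by 0.34 (SE 0.36, interval -0.44 to 1.11). Both had their lowest array in Notch3 +/- and their highest in Notch3 -/-. Without array E the signs of these 3 estimates turned, to -0.16 for Gfap, -0.29 for Aldoc and -0.08 for Aqp4.

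The glutamate transporters differed in sign. Slc1a2 was lower in Notch3 -/- by an estimate of -0.45 (SE 0.34, interval -1.18 to 0.28, limma adjusted p = 0.707), with its lowest array, B, in Notch3 -/- and its highest, I, in Notch3 +/-. Slc1a3 at the probe set brightest in brain read 845, 1053, 1649, 2224 and 878 in Notch3 -/- (A, B, C, D, F), against 466, 1397, 1036 and 1214 in Notch3 +/- (E, G, H, I). The estimate was 0.37 (SE 0.33, adjusted p = 0.764). At the probe set brightest over all 15 arrays, Slc1a3 read 1004, 596, 1498, 1369 and 824 in Notch3 -/-, against 234, 872, 2726 and 1648 in Notch3 +/-. This probe set had its lowest array, E, and its highest, H, in the same Notch3 +/- group, 11.7-fold apart, and its estimate was 0.02.

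S100b had the largest estimate among the members in brain. It read 1168, 1882, 2101, 2588 and 2060 on Notch3 -/- arrays A, B, C, D and F, against 1032, 1176, 1138 and 1162 on Notch3 +/- arrays E, G, H and I. Arrays B, C, D and F lay above every Notch3 +/- array, while A fell inside their narrow range. The means were 1960 ± 514 in Notch3 -/- and 1127 ± 65.4 in Notch3 +/- (SD, n = 5 and 4), a 1.68-fold difference (log2 0.75, SE 0.20, limma adjusted p = 0.248). Leaving out array A brought the estimate to 0.92 and the adjusted p to 0.04996, the only setting with a member past 5% in brain. The dimmer S100b probe set differed by 0.29 (adjusted p = 0.743), with array B its lowest. The 12 oligodendrocyte genes measured, whose cells also use S100b, lay at -0.21, 0.03, 0.37, 0.21 and 0.12 log2 units from their brain mean on A, B, C, D and F, against -0.30, -0.28, -0.28 and 0.34 on E, G, H and I. Arrays A, E, G and H had this list below its mean and low S100b readings, and C, D and F had both high. Array B had high S100b with the list near its mean, and array I had the list high with low S100b. The part of these cells in the S100b value was not tested.

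Glul read 17864, 13685, 11437, 14798 and 15240 in Notch3 -/- brain (A, B, C, D, F), against 7899, 12452, 9931 and 8952 in Notch3 +/- brain (E, G, H, I). Only C and G crossed, and the rest of Notch3 -/- lay above the rest of Notch3 +/-. The estimate was 0.58 (SE 0.18, limma adjusted p = 0.327). The second, dimmer Glul probe set pointed the other way. It read 409, 465, 450.0, 382 and 502 in Notch3 -/-, against 482, 534, 583 and 854 in Notch3 +/-, an estimate of -0.43 (adjusted p = 0.464). Over the 9 brain arrays the 2 Glul probe sets correlated at r = -0.61, so a direction for the gene in brain cannot be read from this platform.

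The lipid carriers and Sparcl1 had estimates below 0. Apoe read 663, 861, 1093, 1296 and 1421 in Notch3 -/- brain (A, B, C, D, F), against 1120, 1653, 1914 and 1873 in Notch3 +/- brain (E, G, H, I). Array E lay among the Notch3 -/- values and the other Notch3 +/- arrays lay above them all. The estimate was -0.63 (SE 0.23, limma adjusted p = 0.415), and -0.80 without array E (adjusted p = 0.216). Clu read 10999, 12603, 11573, 18201 and 14266 in Notch3 -/-, against 14412, 14717, 22186 and 18637 in Notch3 +/-. The groups overlapped through array D, and the estimate was -0.37 (SE 0.19, adjusted p = 0.575). All 4 Clu probe sets had estimates below 0, from -0.37 to -0.11.

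Sparcl1 was the only member whose brain arrays did not overlap between genotypes. It read 6967, 7463, 9026, 9237 and 7427 on Notch3 -/- arrays A, B, C, D and F, against 11377, 9372, 11573 and 11761 on Notch3 +/- arrays E, G, H and I. The highest Notch3 -/- array, D, lay just under the lowest Notch3 +/- array, G. The means were 8024 ± 1032 in Notch3 -/- and 11021 ± 1110.2 in Notch3 +/- (SD, n = 5 and 4), 1.38-fold lower in Notch3 -/- (log2 -0.46, SE 0.16, limma adjusted p = 0.365). Of all tested probe sets 1.85% were lower in Notch3 -/- with no overlap, so 1 of 22 is near the background. Mural genes were low on the same arrays, with 14 of 16 estimates below 0 and a median of -0.45. Of the 16, 2 passed 5% by limma (Tagln -1.56 and Myh11 -1.67), against 0.142% of all tested probe sets. With no filter 1 of 17 measured passed. At an unadjusted p under 0.05 there were 7 of the 16, against 9.39% of all tested. Fibroblast genes lay the other way, with 10 of 11 estimates above 0 and a median of 0.53. By limma 0 of these passed 5%, and 6 had an unadjusted p under 0.05, against the same 9.39%. The part of these in the Sparcl1, Clu and Apoe values was not tested.

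In aorta explants 12 of the 29 member probe sets passed the level filter, from 7 of the genes, and Gfap, Aqp4 and Slc1a2 had none. Of the 12, 0 passed 5% between genotypes, as did 0 of all 22519 probe sets (0%). At an unadjusted p under 0.05 there were 3 of the 12, where 4.35% of all reached it. Aldoc, Slc1a3, S100b, Apoe, Clu and Sparcl1 had estimates from -0.35 to 0.11 at their brightest probe set, each with an interval that holds 0.

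Glul stood out among the members in aorta by its size. It read 1229, 1224 and 1069.8 on Notch3 -/- arrays 5558, 5559 and 6167, against 1594, 2480 and 2000.2 on Notch3 +/- arrays 5556, 5561 and 6166. Every Notch3 -/- array lay below every Notch3 +/- array, and so it was at the second probe set, with 142, 118 and 123 in Notch3 -/- against 163, 261 and 254 in Notch3 +/-. The estimates were -0.76 (SE 0.15, limma adjusted p = 0.472) and -0.73 (adjusted p = 0.820), and -0.92 for the brighter probe set without array 5556 (adjusted p = 0.104). Together with a Clu probe set, 3 of the 12 probe sets were lower in Notch3 -/- with no overlap, against 4.75% of all tested probe sets.

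Whether a genotype difference was itself different between brain and aorta was tested in a single fit over all 15 arrays. No member passed, with 0 of 20 member probe sets and 4 of 22519 in all (0.0178%), and 1 of the 20 had an unadjusted p under 0.05, against 4.76% of all. Glul came nearest, with a difference of 1.34 (SE 0.25, limma adjusted p = 0.159), made of an estimate above 0 in brain and below 0 in aorta. It was 1.496 with an adjusted p of 0.0669 without aorta array 5556. Apoe had -0.61 (SE 0.32, adjusted p = 0.997) and S100b 0.64 (SE 0.31, adjusted p = 0.997). Since the second Glul probe set was below 0 in both tissues, the Glul value rests on the brighter probe set alone.

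Across the brain arrays the members did not all follow a single pattern. Gfap, Aqp4, Aldoc, Slc1a2 and Slc1a3 were grouped with earlier results of these data known, so their likeness is a description. Their 10 pairs all had Pearson r above 0, from 0.31 to 0.91 with a median of 0.70, and 1 of the 10 passed the test. The other 35 pairs ran from -0.90 to 0.83 with a median of 0.19, and 1 of the 35 passed. All 45 pairs were tested over the 9 brain arrays with a two-sided exact permutation test, and 2 passed 5% after Benjamini-Hochberg adjustment, with 11 at an unadjusted p under 0.05. The first was Aqp4 with Aldoc, the water channel and the aldolase (r = 0.91, exact p = 0.0013, adjusted p = 0.0383, Spearman rho = 0.75, exact p = 0.0255). The second was Glul with Sparcl1, in opposite directions (r = -0.90, exact p = 0.0017, adjusted p = 0.0383, rho = -0.87, exact p = 0.0045). By Spearman rho 0 pairs passed, and leaving out any array left 0 or 1 by Pearson r.

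**Figure D3:**
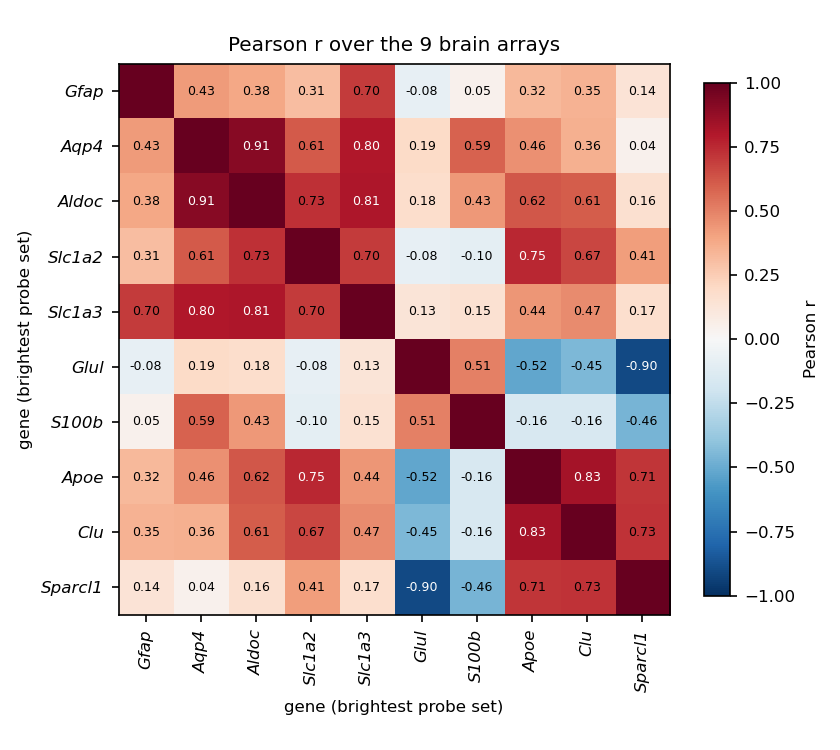
Pearson r of log2(value + 16) between each pair of astrocyte genes over the 9 brain arrays, at the brightest probe set of each gene; red is above 0 and blue below. Gfap, Aqp4, Aldoc, Slc1a2 and Slc1a3 have r from 0.31 to 0.91, and Glul with Sparcl1 stands out at -0.90.

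Without the 2 arrays farthest from the median of the first gene, Aqp4 with Aldoc fell to r = 0.61, so its size rests partly on those arrays, while Glul with Sparcl1 kept r = -0.87. Glul and Sparcl1 also differ in estimate between the genotypes, so the pairs were computed again with each genotype centred on its own mean. Then 5 pairs passed, and Glul with Sparcl1 was not among them. Centring removes the group means, so these permutation p-values are approximate and not exact. By Spearman rho no centred pair passed, with a smallest adjusted permutation p of 0.124. Aqp4 with Aldoc had r = 0.93 (adjusted permutation p = 0.0248). Apoe passed with Aldoc (r = 0.86), Aqp4 (0.86) and S100b (0.79), at an adjusted permutation p of 0.0428 each. Without the 2 farthest arrays these r were 0.66, 0.58 and 0.79. Apoe did not pass with Slc1a2 (r = 0.74, adjusted permutation p = 0.108), Slc1a3 (0.60, 0.187) or Gfap (0.44, 0.409). Aqp4 with Slc1a3 had r = 0.83 (adjusted permutation p = 0.0428). Apoe with Clu, the lipid carriers, had r = 0.83 in the uncentred values (adjusted exact p = 0.0896).

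The mean log2 deviation of Gfap, Aqp4, Aldoc, Slc1a2 and Slc1a3 from their brain means places the arrays in order. On the Notch3 -/- arrays A, B, C, D and F it was -0.29, -0.51, 0.27, 0.39 and 0.12. On the Notch3 +/- arrays E, G, H and I it was -1.14, -0.05, 0.72 and 0.50. Both the lowest array, E, and the highest, H, were Notch3 +/-, and the Notch3 -/- arrays lay between them. On E and B 0 of the 5 genes were above their brain mean, and on H and I all 5 were.

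The genes on the array that followed this mean most closely over the 9 brain arrays were Spon1 (r = 0.976), Nat8f4 (0.973), Syt11 (0.970), Asrgl1 (0.967), Slc25a18 (0.960) and Ntsr2 (0.955). They are the highest among the tested probe sets with a single symbol, a description without a test. Ntsr2, a neurotensin receptor gene, read 1258, 858, 1847, 2518 and 1584 in Notch3 -/- (A, B, C, D, F), against 699, 1693, 4193 and 2321 in Notch3 +/- (E, G, H, I). It was lowest on E and highest on H, like Slc1a3 at the probe set used there. Among other astrocyte genes, 14 of 38 had r above 0.8 with the mean (36.8%), against 1.31% of all tested probe sets. They include Kcnj10, the end-foot potassium channel (r = 0.90), Gpr37l1, an orphan receptor gene (0.94), Bcan (0.95) and Slc4a4, a bicarbonate transporter gene (0.87). Among 19 genes listed for reactive astrocytes 0 had r above 0.8, and their median r was -0.27. This list is not particular to the brain sort. Its summed intensity over the 22 genes measured ran from 39277 to 55256 in brain and from 36574 to 40226 in aorta explants. Genes of other cell types above 0.8 were 1 of 10 neuronal, 1 of 11 oligodendrocyte, 1 of 16 mural and 1 of 16 endothelial. The oligodendrocyte gene was Cnp (0.94). The median r was 0.51 for the neuronal genes, against 0.76 for the other astrocyte genes.

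Many but not all genes of choroid plexus and ependyma, the epithelia that line the ventricles, ran the other way. Of 11 tested, 6 had r below -0.8 with the astrocyte mean (54.5%), against 0.977% of all tested probe sets. These were Foxj1, Kl, Aqp1, Clic6, Kcnj13 and Otx2. Kl, the klotho gene, read 263, 321, 191, 267 and 247 in Notch3 -/- (A, B, C, D, F), against 835, 350.1, 132 and 172 in Notch3 +/- (E, G, H, I). It was highest on E, where the astrocyte genes were lowest, and low on H and I, where they were highest. Ttr, the transthyretin gene of choroid plexus, did not follow (r = 0.55), with its highest value, 44479, on H. Nor did Rarres2 (0.26), while Tmem212 (-0.15) and Ccdc153 (-0.29) were weakly below 0 and Folr1 was at -0.75. The arrays shared by these values are the same 9, and the part of tissue makeup in the astrocyte pattern was not tested.

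**Figure D4:**
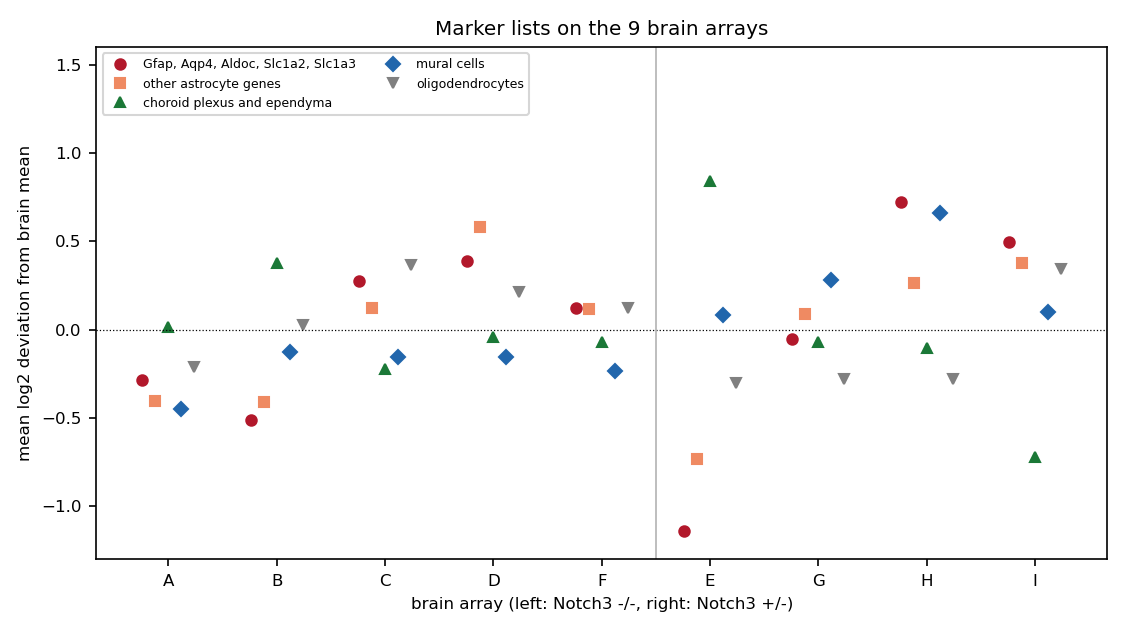
Mean log2 deviation from the brain mean for Gfap, Aqp4, Aldoc, Slc1a2 and Slc1a3 and for 4 marker lists, on each of the 9 brain arrays, Notch3 -/- at the left and Notch3 +/- at the right, with symbols offset sideways for legibility. On array E the 5 astrocyte genes are at -1.14 and the choroid plexus and ependyma list at 0.84, while the mural list is below 0 on all Notch3 -/- arrays and above 0 on all Notch3 +/- arrays.

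The wider astrocyte lists gave no call between genotypes in brain either. Of 38 other astrocyte genes 0 passed and 2 had an unadjusted p under 0.05, against 9.39% of all tested probe sets, with 18 estimates above 0, 20 below and a median of -0.05, against 0.01 over all tested. Gldc, of the glycine cleavage system, had 0.83 (limma adjusted p = 0.446), and Atp1b2, a sodium pump subunit gene, -0.62 (adjusted p = 0.514). Of 11 end-foot genes 0 passed and 1 had an unadjusted p under 0.05, near that 9.39%. Sntb1, which encodes a syntrophin of the dystrophin complex, read 98.4, 112, 79.1, 125 and 58.8 in Notch3 -/- brain (A, B, C, D, F), against 155, 216, 188 and 227 in Notch3 +/- brain (E, G, H, I). Its Pearson r with the mean of the 5 astrocyte genes was 0.11 over the brain arrays. Every Notch3 -/- array lay below every Notch3 +/- array, for 1 of these 11 genes, against 1.85% of all tested probe sets. The Sntb1 difference was -0.96 (limma adjusted p = 0.117). Kcnj10 and Gjb6, which is a connexin gene, had 0.33 and 0.34 (adjusted p = 0.822 and 0.809).

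Of 19 genes listed for reactive astrocytes 0 passed in brain and 4 had an unadjusted p under 0.05, against 9.39% of all tested, with a median of 0.13. Hspb1, a small heat shock protein gene that smooth muscle also uses, had -0.68 (limma adjusted p = 0.248), with 7683 to 13064 in Notch3 -/- and 13233 to 17131 in Notch3 +/-. Gbp2, an interferon-induced GTPase gene, had 0.57 (adjusted p = 0.324) and Cp, the ceruloplasmin gene, 0.40 (adjusted p = 0.443). Serpina3n, a reactive astrocyte marker, stayed at 7.02 to 41.6 on all 9 brain arrays. Of 9 genes for glutamate and glutamine handling and of 12 for apolipoproteins and lipid export, 0 passed in each by limma, 0 had an unadjusted p under 0.05, and the medians were 0.09 and 0.01.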

How the data were processed

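Arrays held RNA of sorted brain cells (9, with 15 µg of cRNA each, per the design text) and of aorta explants (6). Deposited values are linear intensity per probe set; per the design text the authors scaled them to 150, and the 2% trimmed mean was 150 on every array. No source used here states how probes were summarised or detected. Brain cells were sorted into a column kit's lysis buffer, whereas aorta RNA went through Trizol, per the labels. Precision is limited by the number of arrays.

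Of the 45101 probe sets, 34958 had 1 symbol, 932 several and 9211 none; the last 2 kinds entered the tests unnamed. Symbols were updated through RefSeq (34754 matched). The 64 control probe sets were left out. Log2(value + 16) was fitted in limma 3.58.1 (R 4.3.3; two-sided, eBayes with an intensity trend) on the 22519 probe sets at or above the median, with Benjamini-Hochberg adjustment at 5%, within the arrays of each comparison. Correlations used Python 3.11.15 and scipy 1.17.1. The fits were tested on simulated data. All members are named, at each gene's brightest probe set unless stated; of other lists, up to 4 genes by smallest p, any past 5%, and the 6 nearest patterns. A few further values (Ttr, Kl, Serpina3n, Dio2, Snap25, Mbp) were chosen after they were seen. Listed genes without a probe set of 1 symbol were not analysed here. The members, the lists and the tests were chosen with earlier results of these data known. Alternatives were other added constants, no filter, quantile normalization, no trend, array weights, all arrays in 1 fit, a block for the aorta title series, and each array left out.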

Additional observations from a re-analysis of the deposited data

Results flagged for a closer look

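Among the 10 members in the 2 brain groups, 20 sets of arrays were examined for a single array far from the rest, and 2 had one; chance gives about 1 in 20. Aldoc on Notch3 +/- brain array E read 3641.81, well under the 8299 to 9705 of the other Notch3 +/- arrays. Sparcl1 on Notch3 +/- brain array G read 9372.44, under the 11377 to 11761 of the other Notch3 +/- arrays. Array E was also the lowest brain array for Aqp4, at 348, and for the other astrocyte genes as a list, at -0.73 on the log2 scale, while the choroid plexus and ependyma list was at 0.84 there. On G the mural list was at 0.28. The part of these in either value was not tested.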

How the results depend on the processing

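The member genes past 5% numbered 0 between genotypes under every alternative tried, except 1 (S100b) in brain without array A, so that leaving out each array gave 0 to 1 in brain. Over all probe sets the brain count of 32 became 50 with 64 added before the log, 18 with no filter, 52 with array weights and 137 with all 15 arrays in 1 fit, and 10 to 38 when each array was left out. The aorta count of 0 became 2 with all 15 arrays and 0 to 7 when each array was left out, and the difference between tissues went to 13 with array weights, against 4, and to 0 to 7. Against 2 correlated pairs, 5 passed with genotypes centred, where the permutation p-values are approximate. Aqp4 with Aldoc was among them and Glul with Sparcl1 was not. The count was 1 after quantile normalization and 0 to 1 when each array was left out. Some estimates changed sign. Brain Gfap became -0.00597 with 64 added, and the Slc1a2 difference between tissues 0.688 with 1 added and 0.0182 with array weights. Between tissues Sparcl1 became -0.287 in Notch3 -/- and -0.0883 in Notch3 +/- after quantile normalization. With each array left out, brain Gfap ranged from -0.161 to 0.343, Aldoc from -0.286 to 0.184 and Aqp4 from -0.0814 to 0.586. In aorta Slc1a3 ranged from -0.307 to 0.150, Sparcl1 from -0.419 to 0.0062, Apoe from -0.149 to 0.0389 and S100b from -0.112 to 0.343. In the difference between tissues Slc1a2 ranged from -0.452 to 0.140, Slc1a3 from -0.600 to 0.552 and Aqp4 from -0.223 to 0.444. The Sparcl1 tissue call in Notch3 -/- was gained without array 6167 (0.4931, adjusted p = 0.0226), and in Notch3 +/- it was lost with no filter (adjusted p = 0.0845), without 5556 (0.0853) and without 5561 (0.0830). The cause of these changes was not tested. Aldoc in aorta fell under the filter without array 5556 and has no value there. No paired analysis was possible because no replicate name is shared between groups. Without detection calls, values near the low end, such as those of Gfap, Aqp4 and Slc1a2 in aorta, have no stated lower limit of measurement.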

Other observations

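Other genes of glutamate handling and lipid export differed between the tissues in both directions. Among Notch3 -/- arrays the transporter genes Slc1a1, Slc38a3 and Slc38a5 were higher in brain by 3.82, 4.07 and 4.76 log2 units, and among Notch3 +/- arrays by 3.67, 4.37 and 4.64. Slc1a5, a neutral amino acid transporter gene, was lower in brain, with differences of -1.63 in Notch3 -/- and -1.47 in Notch3 +/-. Of the 9 tested in Notch3 -/- 6 were higher and 1 lower, where 33.6% of all tested probe sets were higher and 28.9% lower. In the lipid export list Pltp, the phospholipid transfer protein gene, was higher in brain by 3.72 in Notch3 -/- and 3.80 in Notch3 +/-. Apod, an apolipoprotein gene, was higher by 2.56 in Notch3 -/- and 2.38 in Notch3 +/-. Lpl, lipoprotein lipase, was lower, with -2.02 in Notch3 -/- and -2.43 in Notch3 +/-, and so was Lrp1, a receptor for Apoe, with -1.83 in Notch3 -/- and -1.66 in Notch3 +/-. Of 12 tested in Notch3 -/- 6 were higher and 4 lower, against the same 33.6% and 28.9%. With no filter 6 of 10 glutamate genes and 5 of 15 lipid genes were higher, against 20.3%.

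Of 19 genes listed for reactive astrocytes and tested in Notch3 -/-, 7 were higher and 9 lower in brain. Of all tested, 33.6% were higher and 28.9% lower, so the count of higher genes is near that share and the count of lower genes is above it. With no filter 7 of 22 measured were higher and 10 lower, against 20.3% and 17.5% of all probe sets. Cp was higher by 3.55 and Osmr, the oncostatin M receptor gene, by 2.16, while Emp1 was lower by 2.59 and Cd44 by 2.21.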
